A study of Homo sapiens with 8 samples.

Results

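The genes described here are 10 genes of the cellular response to low oxygen, read in A549 human lung adenocarcinoma cells treated with a seed extract or with one of its components. They are the hypoxia-inducible factor genes HIF1A and EPAS1 and the target genes VEGFA, CA9, ADM, BNIP3, NDRG1, ANKRD37, EGLN3 and PDK1. The genes are a list of symbols set with earlier results of these data known, the rule used no measured value, and all 10 were found among the 19046 genes kept on the arrays. The extract was EEDS, an ethanol extract of the seeds of Descurainia sophia. The compound was helveticoside, a cardiac glycoside, that is, an inhibitor of the sodium pump, which the study isolated from EEDS. One series of arrays held a vehicle control and EEDS at 1.25, 5 and 20 μg/mL, and the other held its own vehicle control and helveticoside at 3.75, 15 and 60 nM. All 8 groups were the same cell line grown in serum-containing medium, no group was labelled as grown at low oxygen, and no allele or transgene was involved.

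Each group had 1 one-colour Agilent array, and the RNA on it was pooled from 3 cultures. There was thus no replicate of any dose, and no p-value belongs to a single dose. The only tests were those of models fitted across the arrays. The study's methods give 24 h of exposure for the arrays, whereas the treatment text in the labels gives 48 h in a passage on the viability assay.

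Hypoxia-inducible factors are pairs of an oxygen-controlled alpha subunit, encoded by HIF1A or EPAS1, and a constant beta subunit, encoded by ARNT or ARNT2. When oxygen is plentiful, prolyl hydroxylases of the EGLN family mark the alpha subunit, the VHL ubiquitin ligase binds the mark and the protein is destroyed. The control therefore acts mainly on the protein, which arrays do not measure. Stabilized factors bind hypoxia response elements in DNA, short sequences around the core ACGTG or GCGTG, and switch on genes for glycolysis, acid export, blood vessel growth and mitochondrial turnover.

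Of the 10 genes, 8 had a promoter sequence in the RefSeq table used here (GRCh38.p14), from 250 bases before to 50 after a start of the gene. The core ACGTG, searched on both strands, was found in those of PDK1, ANKRD37, CA9 and BNIP3. It was in 21.4% of the 35116 promoters of the table. These 4 are shown because they carry that core and because their transcripts went different ways in the same cells. Each is the stretch of 180 bases that ends just before the start, read 5′ to 3′ on the strand of the gene, with every ACGTG, or its reverse complement CACGT, in capitals. The positions are chr2:172555910-172556089 on the plus strand for PDK1, chr4:185396661-185396840 on the plus strand for ANKRD37, chr9:35673748-35673927 on the plus strand for CA9 and chr10:131981924-131982103 on the minus strand for BNIP3.
PDK1: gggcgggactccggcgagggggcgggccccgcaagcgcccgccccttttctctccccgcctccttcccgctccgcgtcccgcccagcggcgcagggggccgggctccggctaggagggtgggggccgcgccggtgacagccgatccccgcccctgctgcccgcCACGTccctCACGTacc
ANKRD37: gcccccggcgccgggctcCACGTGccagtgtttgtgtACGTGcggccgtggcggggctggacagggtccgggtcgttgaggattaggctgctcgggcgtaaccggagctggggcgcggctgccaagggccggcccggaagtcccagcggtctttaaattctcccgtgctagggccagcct
CA9: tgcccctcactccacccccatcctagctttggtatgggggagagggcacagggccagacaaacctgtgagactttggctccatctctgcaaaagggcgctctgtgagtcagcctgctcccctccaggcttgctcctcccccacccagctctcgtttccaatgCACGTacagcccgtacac
BNIP3: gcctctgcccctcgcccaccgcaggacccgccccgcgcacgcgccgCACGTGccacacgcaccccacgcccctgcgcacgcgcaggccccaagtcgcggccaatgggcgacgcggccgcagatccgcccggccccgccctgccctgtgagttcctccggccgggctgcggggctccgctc
ANKRD37 and BNIP3 held the palindrome CACGTG, which reads as the core on both strands and was in 7.26% of all promoters. The other core, GCGTG, was in the promoters of EPAS1, BNIP3, ADM and HIF1A and in 36.5% of all promoters. The promoter of EGLN3 held neither core in this window. VEGFA and NDRG1 had no entry. A match of 5 letters is a description of the sequence and was not tied here to binding of any factor.

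Levels are the scanner software's background-subtracted signal after quantile normalization of the 8 arrays, here called the signal, and differences are log2 ratios to the vehicle control of the same series. The median signal of a spot was 182 to 278 and its local background 27 to 34. No array had a saturated probe spot, and on an array 54.5% to 64.9% of probes were well above background. Of the 10 genes, 9 were well above background on all 8 arrays, and EGLN3 was not. The 2 vehicle controls differed by over 2-fold in 10.4% of all genes and in none of the 10. The epithelial markers KRT8, KRT18, KRT19, EPCAM and CDH1 were well above background on all 8 arrays, as were AKR1B10 and ALDH1A1, whereas SFTPB was on none. At 20 μg/mL EEDS and 60 nM helveticoside CDH1 stood at 148 and 126 against 963 and 825 in the controls. KRT19 stood at 8427 and 8179 against 31456 and 26888, and EPCAM at 688 and 524 against 666.5 and 627. KRT8, KRT18, AKR1B10 and ALDH1A1 were also lower at both top doses. Of the markers of other cell types, PTPRC and CD14 of 5 blood cell genes, CDH5 of 4 endothelial genes and COL1A1 of 5 fibroblast genes were well above background on all 8 arrays. The summed signal of the blood cell list was 810 to 3414 in the EEDS series and 770 to 3692 in the helveticoside series, most of it from CD14. CD3E and HBB were well above background on no array. The CD14 signal was 951 at 20 μg/mL EEDS against 2824 in its control, and 515 at 60 nM helveticoside against 2500. At the same doses PTPRC stood at 134 and 155 against 117 and 135 in the controls, COL1A1 at 569 and 389 against 327 and 237, and CDH5 at 125 and 183 against 117 and 160. The part of these genes in the results below was not tested. In such bulk samples, fewer cells of a kind and less RNA per cell cannot be told apart.

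The response of the 10 genes was split. At both top doses VEGFA and ADM, which encode secreted factors acting on blood vessels, were over 4-fold higher, and NDRG1 and ANKRD37 were 1.78- to 2.92-fold higher. BNIP3, which encodes a mitochondrial protein that directs mitochondria to autophagy, and EGLN3 were lower, while CA9 and PDK1 were lower by under 1.5-fold. HIF1A itself was within 1.2-fold of the control at both top doses. All 10 genes had the same sign at both top doses, as did 76.5% of all genes. The levels of each gene over the dose steps show this split.

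**Figure D1:**
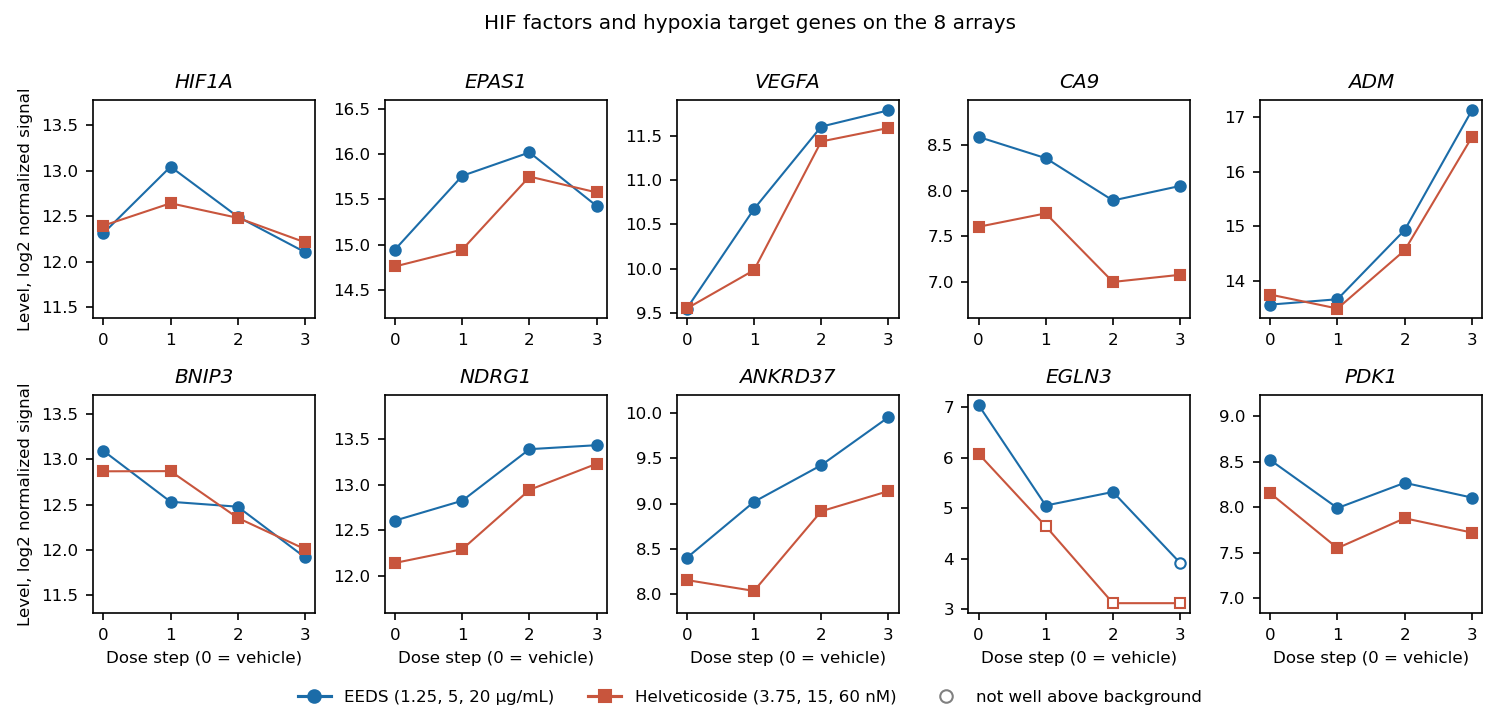
Level of each of the 10 genes (log2 normalized signal, vertical axis with a range of its own for each gene) on the 8 arrays, by dose step from the vehicle control (0) to the top dose (3). Circles are EEDS and squares helveticoside, open symbols were not well above background, and each point is 1 array, so there are no error bars. VEGFA and ADM end highest above their controls, BNIP3 ends below them, and HIF1A has its highest level at step 1 in both series.

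HIF1A encodes the alpha subunit that most cells use. In the EEDS series its signal was 5088 in the control, 8454 at 1.25 μg/mL, 5774 at 5 μg/mL and 4405 at 20 μg/mL. In the helveticoside series it was 5392 in the control, 6397 at 3.75 nM, 5722 at 15 nM and 4748 at 60 nM. After quantile normalization the lowest dose gave the highest level and the top dose the lowest in both series. That order depended on the normalization. Before it, the processed signal in the same order was 4410, 9833, 6709 and 6936 for EEDS and 4299, 4112, 4487 and 4673 for helveticoside. The log2 ratios over the doses were 0.73, 0.18 and -0.21 for EEDS and 0.25, 0.09 and -0.18 for helveticoside. A second probe for HIF1A gave 0.62, 0.26 and -0.11 for EEDS and 0.36, 0.08 and -0.26 for helveticoside. The probe used was printed on 10 spots, and over the probes for HIF1A and ADM, both printed so, the SD between spots of 1 array was 0.04 to 0.09 on the log2 scale, which covers the array only. When the arrays were scaled to their 75th percentile instead, every treated array lay above its control. The ratios at the top doses thus changed sign, to 0.03 for EEDS and 0.07 for helveticoside. The median of all genes moved to -0.36 and -0.18 at these doses under that scaling, so relative to it HIF1A was higher by 0.38 and 0.25.

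A slope over the dose steps averages such a course. The limma slope of HIF1A was -0.12 per dose step (SE 0.14, adjusted p = 0.667, n = 8 arrays) for EEDS and -0.07 (SE 0.14, adjusted p = 0.845) for helveticoside. A dose step is 1 position in the series of doses, each dose being 4 times the one before it.

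EPAS1 encodes the alpha subunit HIF-2alpha. Its signal in the EEDS series was 31632 in the control, 55500 at 1.25 μg/mL, 66356 at 5 μg/mL and 44074 at 20 μg/mL. The helveticoside arrays gave 27798 in the control, 31622 at 3.75 nM, 55182 at 15 nM and 48888 at 60 nM. All 6 treated arrays were above their controls, and the middle dose was the highest in each series, with log2 ratios of 1.07 for EEDS and 0.99 for helveticoside. At the top doses the ratios were 0.48 and 0.81. The slopes were 0.17 per step (SE 0.16, limma adjusted p = 0.545) for EEDS and 0.32 (SE 0.16, adjusted p = 0.240) for helveticoside.

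The beta subunit genes were read beside them. ARNT, the common partner, had log2 ratios of 0.84 at 20 μg/mL EEDS and 0.73 at 60 nM helveticoside, with limma adjusted p = 0.154 and 0.241 for its slopes. ARNT2, the partner prominent in nerve cells, had ratios of -0.94 and -0.91 (adjusted p = 0.136 and 0.129). HIF3A, whose products include inhibitors of the other factors, had ratios of 0.11 and 0.22 (adjusted p = 0.755 and 0.510). The EEDS and helveticoside controls stood at log2 levels of 7.61 and 6.68 for ARNT and 6.44 and 7.40 for HIF3A. For both genes the controls were thus further apart than the ratios at the top doses. None of the 5 subunit genes passed the trend test in either series, and none was over 2-fold different at a top dose.

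EGLN3, a prolyl hydroxylase whose gene is itself a hypoxia target, was the only one of the 10 not well above background on every array. In the EEDS series its signal was 132 in the control, 33.2 at 1.25 μg/mL, 40.0 at 5 μg/mL and 15.1 at 20 μg/mL, the last not well above background. With helveticoside it was 67.6 in the control and 25.0, 8.70 and 8.70 at the 3 doses, none of them well above background. Both series began highest in the control. EGLN3 was 3.97-fold lower at 1.25 μg/mL and 3.30-fold lower at 5 μg/mL EEDS, and at least 4.71-fold lower at 20 μg/mL. At the helveticoside doses the bounds were at least 1.09-, 1.81- and 1.52-fold lower, where the dim array stands at the lowest signal called well above background on it. The slopes were -0.91 (SE 0.24, limma adjusted p = 0.0619) and -1.04 (SE 0.24, adjusted p = 0.0536). Over the alternatives its log2 ratio at the top dose ranged from -3.84 with 75th percentile scaling to -1.13 with the signal as scanned for EEDS. For helveticoside it ranged from -3.92 against the other series' control to -0.60 with the authors' processed table.

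The other genes of HIF turnover and control were read from a list of 14 that includes EGLN3. With EEDS 3 of them rose with dose, beside 7.27% of all genes, and with helveticoside 2, beside 5.48%. None fell, beside 7.85% and 5.8% of all genes, shares at which few of 14 genes would be called. EGLN1, the main prolyl hydroxylase, had log2 ratios of 0.63 at 20 μg/mL EEDS (limma slope 0.19, adjusted p = 0.118) and 0.87 at 60 nM helveticoside (slope 0.32, adjusted p = 0.0456). ELOC, a subunit of the VHL ligase, rose in both series, with ratios of 0.87 and 0.72 (adjusted p = 0.0205 and 0.0396). SIAH1, a ubiquitin ligase that acts on EGLN proteins, rose with EEDS by 1.61 at the top dose (adjusted p = 0.0309) and had a ratio of 0.92 with helveticoside (adjusted p = 0.125). EP300, a coactivator of the factors, rose with EEDS by 1.17 (adjusted p = 0.0431) and had a ratio of 1.10 with helveticoside (adjusted p = 0.0672).

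The rest of that list did not pass the test in either series. VHL, the recognition subunit of the ligase, had log2 ratios of -0.78 and -0.30 at the top doses of EEDS and helveticoside (limma adjusted p = 0.0502 and 0.592). CREBBP, the paralog of EP300, had ratios of 0.72 and 0.82, and CITED2, which competes for both coactivators, had 0.75 and 0.78. HIF1AN, the asparaginyl hydroxylase that blocks coactivator binding, had ratios of 0.75 and 0.87, and EGLN2 had 0.36 and 0.32. Of the other ligase subunits, ELOB had 0.61 and 0.79, CUL2 had 0.45 and 0.18, and RBX1 had -0.25 and -0.09. SIAH2 had -0.12 and 0.35. For VHL, HIF1AN, CUL2 and SIAH2 the controls of the 2 series were further apart than both of these ratios. The EEDS and helveticoside controls stood at log2 levels of 15.63 and 16.77 for VHL and 7.11 and 6.20 for HIF1AN. They stood at 8.10 and 8.57 for CUL2 and 12.28 and 11.87 for SIAH2. The median of the 14 genes was 0.62 at 20 μg/mL EEDS and 0.75 at 60 nM helveticoside, beside 0.02 and 0.00 for all genes.

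VEGFA, the main growth factor for blood vessels, rose in both series. Its signal in the EEDS series was 748 in the control, 1634 at 1.25 μg/mL, 3121 at 5 μg/mL and 3548 at 20 μg/mL. The helveticoside arrays gave 748.5 in the control, 1012 at 3.75 nM, 2778 at 15 nM and 3089 at 60 nM. Each dose was above the one before it in both series, and most of the difference was reached at the middle dose. At the top doses VEGFA was 4.74-fold higher with EEDS and 4.13-fold higher with helveticoside, and 97.6% of all genes had a lower ratio in each case. The slopes were 0.77 per step (SE 0.14, limma adjusted p = 0.0284) and 0.76 (SE 0.14, adjusted p = 0.0339). A second, dimmer VEGFA probe gave log2 ratios of 2.61 and 3.42 at the top doses, against 2.25 and 2.04 for the probe used.

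ADM encodes adrenomedullin, a peptide that widens blood vessels. Its signal in the EEDS series was 12155 in the control, 13008 at 1.25 μg/mL, 31258 at 5 μg/mL and 142337 at 20 μg/mL. In the helveticoside series it was 13800 in the control, 11564 at 3.75 nM, 24179 at 15 nM and 101325 at 60 nM. The lowest doses lay near the controls, and the step from the middle to the top dose was the steepest. ADM was 11.7-fold higher at 20 μg/mL EEDS and 7.34-fold higher at 60 nM helveticoside, where its ratio ranked 90 and 164 from the highest of 19046. The slopes were 1.19 (SE 0.30, limma adjusted p = 0.0531) and 0.97 (SE 0.30, adjusted p = 0.0987), so the trend of the gene with the highest ratios of the 10 did not pass. Scaling to the 75th percentile, the signal as scanned, the normexp correction, the authors' processed table and a fit limited to genes well above background on every array each brought both slopes past the threshold, with adjusted p from 0.0119 to 0.0429. Most alternatives did not. Of 18, the EEDS slope was called in 6 and the helveticoside slope in 5.

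**Figure D2:**
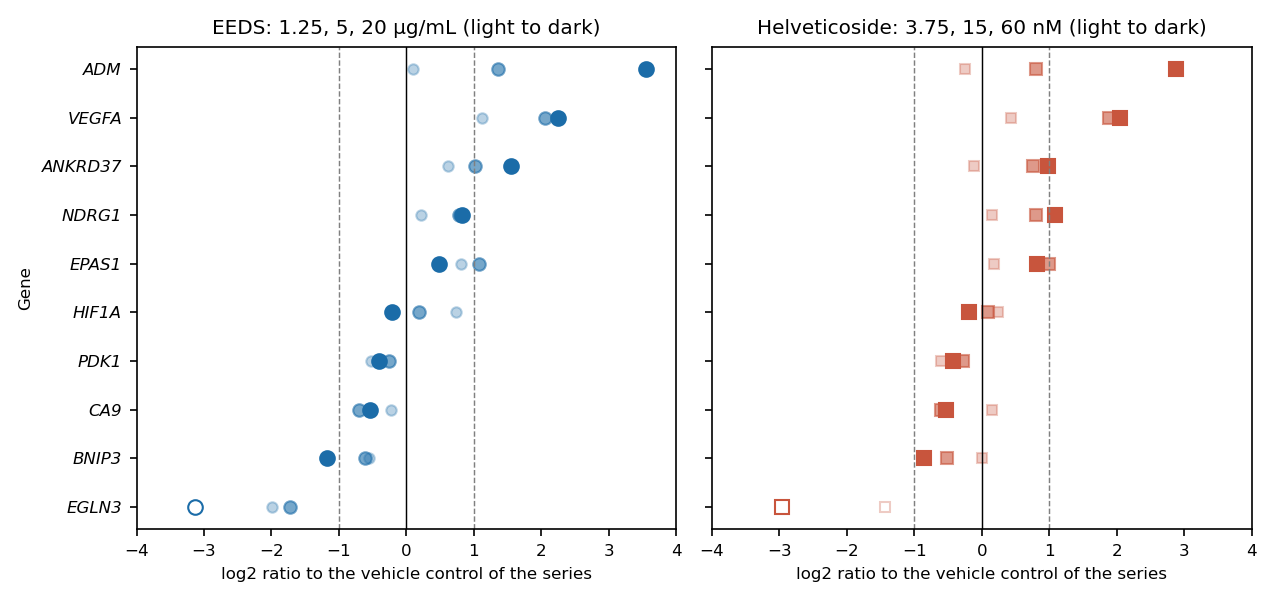
Log2 ratio of each of the 10 genes to the vehicle control of its own series (horizontal axis, no unit), with EEDS on the left and helveticoside on the right. Shades run from the lowest dose (light) to the top dose (dark), dashed lines mark 2-fold, and open symbols are ratios in which an array was not well above background. ADM lies farthest to the right at both top doses, at 3.55 and 2.88, and EGLN3 farthest to the left.

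CA9 encodes a carbonic anhydrase of the cell surface that handles acid and is widely used as a marker of hypoxia. Its signal in the EEDS series was 386 in the control, 328 at 1.25 μg/mL, 238 at 5 μg/mL and 266 at 20 μg/mL. With helveticoside it was 194.5 in the control, 215.5 at 3.75 nM, 128 at 15 nM and 135 at 60 nM. The middle and top doses lay below the control in both series, with log2 ratios between -0.70 and -0.53. The 2 controls themselves differed by 0.99, and CA9 was the only one of the 10 whose ratios at the top doses were smaller than the difference between the controls. Against the other series' control the ratio at 20 μg/mL EEDS was 0.45. The slopes were -0.21 (SE 0.10, limma adjusted p = 0.229) and -0.23 (SE 0.10, adjusted p = 0.205).

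PDK1, a kinase that inhibits the pyruvate dehydrogenase complex of mitochondria, had a signal of 367 in the EEDS control and of 254, 308 and 275 at the 3 doses. In the helveticoside series it was 285 in the control and 187, 235 and 211 at the doses. All 6 treated arrays lay below the control of their own series. The lowest dose was the lowest in each series, with log2 ratios of -0.53 and -0.60. At the top doses the ratios were -0.41 and -0.43, and the slopes were -0.10 in each series (SE 0.11, limma adjusted p = 0.649 and 0.670). The controls themselves differed by 0.37, nearly as much as the ratios at the top doses. The middle EEDS dose, at 308, lay above the helveticoside control of 285. Over the alternatives the PDK1 ratio at the top dose ranged from -0.69 to -0.05 for EEDS and from -0.80 to -0.40 for helveticoside. Of its paralogs, PDK2 fell in both series, with ratios of -2.15 at 20 μg/mL EEDS and -1.66 at 60 nM helveticoside (adjusted p = 0.0132 and 0.0185). PDK3 also fell, with ratios of -1.16 and -1.76 (adjusted p = 0.0313 and 0.0195).

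BNIP3 fell with EEDS. Its signal was 8728 in the EEDS control, 5915 at 1.25 μg/mL, 5696 at 5 μg/mL and 3871 at 20 μg/mL. The helveticoside arrays gave 7463 in the control, 7472 at 3.75 nM, 5229 at 15 nM and 4121 at 60 nM. The top dose was the lowest in both series, 2.25-fold below the control for EEDS and 1.81-fold for helveticoside. The slopes were -0.36 (SE 0.07, limma adjusted p = 0.0315) and -0.31 (SE 0.07, adjusted p = 0.0509). Scaled to the 75th percentile, the EEDS slope was -0.26 with an adjusted p of 0.0666. The log2 ratios at the top doses were then -0.90 for EEDS and -0.60 for helveticoside, both under 2-fold. Relative to the median of all genes they were -0.54 and -0.42.

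NDRG1, a gene induced by hypoxia and other stresses, rose in both series. Its signal was 6238 in the EEDS control, 7258 at 1.25 μg/mL, 10754 at 5 μg/mL and 11086 at 20 μg/mL. With helveticoside it was 4515 in the control, 5013 at 3.75 nM, 7887 at 15 nM and 9622 at 60 nM. Each dose was above the one before it. The top doses were 1.78-fold and 2.13-fold above the controls, with slopes of 0.31 (SE 0.07, limma adjusted p = 0.0378) and 0.39 (SE 0.07, adjusted p = 0.0279). Its paralogs had the opposite sign at the top doses. NDRG3 had log2 ratios of -2.18 with EEDS and -2.52 with helveticoside (adjusted p = 0.0612 and 0.0492), NDRG4 had -2.29 and -2.81, and NDRG2 had -1.60 and -1.62.

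ANKRD37, a small ankyrin repeat protein known as a HIF target, rose with EEDS. Its signal was 338.5 in the EEDS control, 519 at 1.25 μg/mL, 686 at 5 μg/mL and 990 at 20 μg/mL, each dose above the one before it. In the helveticoside series it was 286 in the control, 263 at 3.75 nM, 483 at 15 nM and 563 at 60 nM, where the lowest dose lay below the control. The top doses were 2.92-fold and 1.97-fold above the controls. The slopes were 0.50 (SE 0.09, limma adjusted p = 0.0263) and 0.38 (SE 0.09, adjusted p = 0.0553).

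Counted over the 10 genes, 4 had a dose trend with EEDS, beside 15.1% of the 19046 genes tested. VEGFA, NDRG1 and ANKRD37 rose, beside 7.27% of all genes, and BNIP3 fell, beside 7.85%. With helveticoside 2 had one, beside 11.3% of all genes. Both, VEGFA and NDRG1, rose, beside 5.48% of all genes, and none fell, beside 5.8%. With 10 genes, such counts are a description, and the first depended on single arrays: without the EEDS control, the 20 μg/mL array or the helveticoside 15 nM array it was 0, without the 1.25 μg/mL or the 60 nM array 1, and without the 5 μg/mL array 2. The count for helveticoside was 0 without its control, without its 15 nM or 60 nM array or without the 1.25 μg/mL EEDS array, and 1 without the EEDS control, the 5 μg/mL or the 3.75 nM array. When 1 array at a time was left out, VEGFA was called in 4 of 8 cases for EEDS and in 2 of 8 for helveticoside, NDRG1 in 1 and 2, BNIP3 in 4 and 0, and ANKRD37 in 2 and 1, and over all alternatives the slopes of these 4 genes kept their sign. Here and below, no share of all genes is given for fits without an array, and such fits have fewer degrees of freedom for every gene. It therefore cannot be said whether the changed counts of those fits are particular to the listed genes. From the 4 arrays of a series alone, which also leave few degrees of freedom, limma called none of the 10 in either series. No slope of the 10 differed between the agents by limma (0 of 10, lowest adjusted p = 1, 0 of 10 at an unadjusted p under 0.05), and none of all genes did (0 of 19046, 525 at an unadjusted p under 0.05). The differences, helveticoside minus EEDS, ran from -0.22 for ADM (95% interval -1.28 to 0.83) to 0.16 for EPAS1 (-0.40 to 0.71), and the doses of the agents are in different units. The steps were also not matched in inhibition of growth. Both top doses lay above the IC50 that the study gives for the agent. The middle dose lay above it for EEDS and below it for helveticoside.

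**Figure D3:**
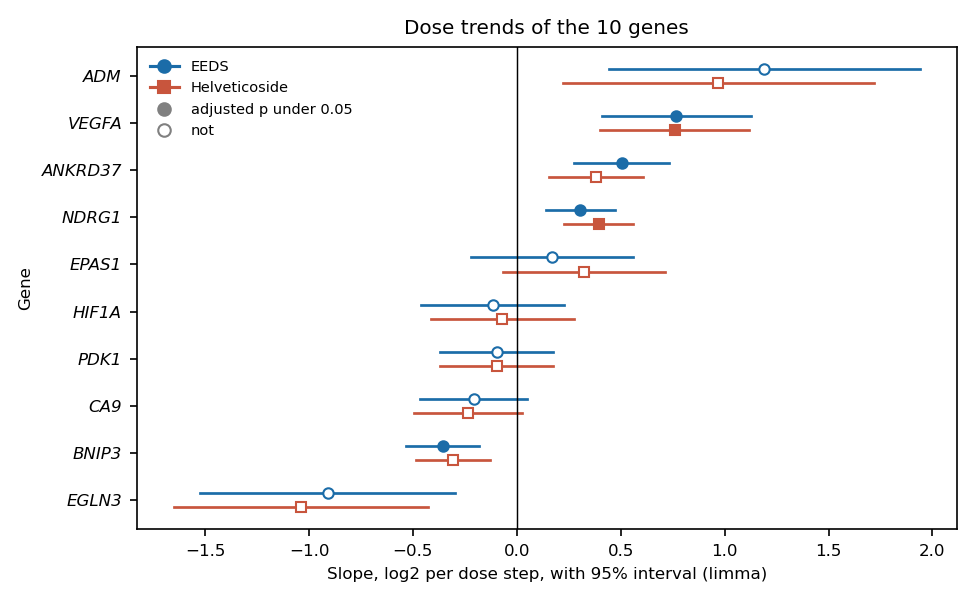
Slope of each of the 10 genes over the dose steps (log2 per step, horizontal axis) with its 95% interval from limma, circles for EEDS and squares for helveticoside, filled where the adjusted p was under 0.05. The intervals of VEGFA, ADM, NDRG1 and ANKRD37 lie above 0 and those of BNIP3 and EGLN3 below 0 for both agents, and the 6 filled symbols are VEGFA and NDRG1 for both agents and ANKRD37 and BNIP3 for EEDS.

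Over 2-fold at 20 μg/mL EEDS were 5 of the 10 genes, beside 27.8% of all genes. VEGFA, ADM and ANKRD37 were higher, beside 13.3%, and BNIP3 and EGLN3 lower, beside 14.5%. At 60 nM helveticoside 4 were over 2-fold, beside 23.6% of all genes. VEGFA, ADM and NDRG1 were higher, beside 10.8%. EGLN3 was lower by its measured signal, beside 12.8%, though its bound was under 2-fold.

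At the lower doses fewer were over 2-fold. At 1.25 μg/mL EEDS VEGFA was higher, beside 4.22% of all genes, and EGLN3 lower, beside 3.66%, which makes 2 of the 10 beside 7.88% in either direction. At 5 μg/mL EEDS EPAS1, VEGFA, ADM and ANKRD37 were higher, beside 7.33%, and EGLN3 lower, beside 8.47%, or 5 of the 10 beside 15.8%. At 3.75 nM helveticoside none was higher, beside 3.38%, and EGLN3 alone was lower, by a measured signal with a bound under 2-fold, beside 4.31%, or 1 of the 10 beside 7.69%. At 15 nM VEGFA was higher, beside 7.08%, and EGLN3 lower, again with a bound under 2-fold, beside 8.06%, or 2 of the 10 beside 15.1%.

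A fit added after the data were seen took the dose steps as separate levels and the 2 series as a block, so that both agents served as repeats of a step. It is open to any difference between EEDS and helveticoside, and was used because HIF1A, EPAS1 and PDK1 did not move in a straight line. At the lowest step none of the 10 genes was called by limma, beside 2 of all 19046 genes, or 0.0105%. HIF1A, VEGFA, EGLN3 and PDK1 had an unadjusted limma p under 0.05 there. No share of all genes is given for that threshold, so it cannot be said whether this is many. At the middle step 7 were called, beside 22.1% of all genes, with EPAS1 higher by 1.03 (SE 0.23, adjusted p = 0.0423). At the top step 8 were called, beside 38.3% of all genes, and the 2 left were HIF1A at -0.20 (SE 0.15, adjusted p = 0.378) and EPAS1 at 0.65 (SE 0.23, adjusted p = 0.0948). After quantile normalization HIF1A had its highest level at the lowest dose and its lowest at the top dose in both series. The contrast between these steps was added after that was seen, so its p-value for HIF1A is a description only. Between the lowest and the top step HIF1A fell by 0.69 (SE 0.15, adjusted p = 0.0287), beside 30.3% of all genes that differed between these steps. That call was lost when any array other than the 3.75 nM one was left out, with differences of -0.79 to -0.45 and adjusted p from 0.0513 to 0.138. VEGFA, ADM and NDRG1 were called at the top step in 8 of 8 such cases. The count at the top step was 4 without the EEDS control, 3 without the 20 μg/mL array and 5 without the helveticoside control, and otherwise 6 to 9. The count at the middle step was 0 without either control, the 5 μg/mL or the 15 nM array, and 4 without the 20 μg/mL or the 60 nM array.

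The wider pathway was read from 8 lists of HIF subunits, controllers, targets and paralogs with 107 genes, of which 105 were found. With EEDS 17 of them rose with dose and 6 fell, and with helveticoside 12 rose and 4 fell. Of all genes, 7.27% rose and 7.85% fell with EEDS, and 5.48% rose and 5.8% fell with helveticoside. With the 10 genes left out there were 95, of which 14 rose and 5 fell with EEDS and 10 rose and 4 fell with helveticoside. With the 75th percentile scaling the counts over the 105 were 23 and 13 for EEDS and 16 and 7 for helveticoside. No share of all genes is given under that scaling. Without the EEDS control or the 20 μg/mL array the EEDS count was 0, without the helveticoside 15 nM array 7 and without the 1.25 μg/mL array 14. The helveticoside count was 0 without its 15 nM or 60 nM array, 3 without its control, 10 without its 3.75 nM array, 6 without the 1.25 μg/mL EEDS array and 8 without the 5 μg/mL EEDS array.

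Secreted and vascular targets had a median log2 ratio of 1.52 at 20 μg/mL EEDS and 1.20 at 60 nM helveticoside over 14 genes, and 9 and 7 of them were over 2-fold higher, beside 13.3% and 10.8% of all genes. None was over 2-fold lower, beside 14.5% and 12.8%. Only 8 of the 14 were well above background on all 8 arrays, and the medians and counts used the ratios as measured. EPO, counted as higher with helveticoside, had a signal of 34.4 at 60 nM against 11.9, neither well above background. STC1 and STC2 with helveticoside and STC2 and CXCR4 with EEDS were counted against controls not well above background. Beside VEGFA and ADM, ANGPTL4, a secreted regulator of lipid uptake, had ratios of 1.51 and 1.41 (limma adjusted p = 0.257 and 0.287).

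The list of mitochondria, pH and stress targets, to which BNIP3, CA9 and NDRG1 belong, had medians of -0.86 and -0.69 over 12 genes. In it 6 genes were over 2-fold lower with EEDS and 5 with helveticoside, beside 14.5% and 12.8% of all genes, and 1 and 2 were over 2-fold higher, beside 13.3% and 10.8%. TXNIP, an inhibitor of thioredoxin and glucose uptake that is named here after its values were seen, rose in both series (limma adjusted p = 0.0481 and 0.0231). Its log2 ratio at the top dose of EEDS was 3.33, and at that of helveticoside it was at least 11.2-fold higher, since its control was not well above background. HILPDA, a protein of lipid droplets, fell with EEDS by 2.51 at the top dose (limma adjusted p = 0.0231) and had a ratio of -1.70 with helveticoside (adjusted p = 0.0661). FAM162A, a mitochondrial protein, had a ratio of -1.26 with EEDS (adjusted p = 0.0525) and fell by 1.74 with helveticoside (adjusted p = 0.0309). CA12, the carbonic anhydrase most like CA9 in site and function, had ratios of -1.49 and -1.81 (adjusted p = 0.0638 and 0.0588). AK4, a mitochondrial adenylate kinase, had -1.54 and -1.48, and DDIT4, a brake on mTOR signaling, had -2.13 and -1.06, and neither passed the test. DDIT4 was below its control only at the top doses. Its log2 levels from control to top dose were 13.64, 14.53, 14.19 and 11.51 for EEDS and 13.77, 14.18, 14.51 and 12.72 for helveticoside.

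Glycolysis and glucose uptake targets, with PDK1 among them, had medians of -0.26 and -0.07 over 21 genes. PFKFB4, which makes the activator of phosphofructokinase, rose with ratios of 2.89 and 2.59 (limma adjusted p = 0.0132 and 0.0185). PFKP, a phosphofructokinase, rose with 1.27 and 1.23 (adjusted p = 0.0190 and 0.0237). SLC2A1, a glucose transporter, had ratios of 1.10 and 1.39 (adjusted p = 0.0960 and 0.0603). These 3 and PDK3 were the genes of the list over 2-fold in the same direction at both top doses.

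Of the matrix and hydroxylase targets, with a median of 0.15 at 20 μg/mL EEDS and 0.41 at 60 nM helveticoside over 11 genes, PLOD2, a collagen lysyl hydroxylase, rose with ratios of 1.93 and 1.56 (limma adjusted p = 0.0190 and 0.0291). The list of transcription and repeat-protein targets, which holds ANKRD37, had medians of 1.23 and 0.67 over 13 genes. In it MXD1, a partner of MAX, rose with 2.87 and 2.24, and RSBN1 rose with 1.41 and 1.21. BHLHE40, a repressor of the clock, had 1.45 and 1.60, and VLDLR, a lipoprotein receptor, had 1.23 and 2.02, neither of them past the test. The paralogs and partners of the 10 genes had medians of -0.43 and -0.13 over 23 genes.

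**Figure D4:**
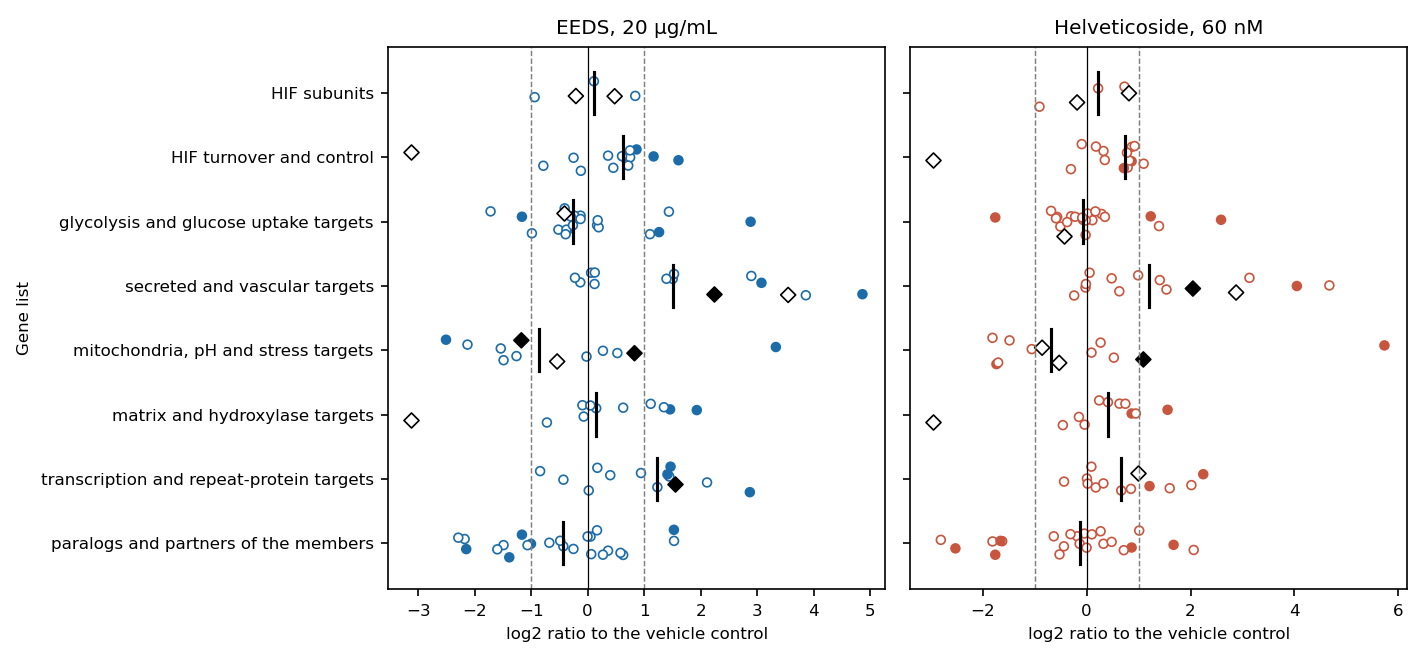
Log2 ratio to the vehicle control at 20 μg/mL EEDS (left) and 60 nM helveticoside (right) for the genes of the 8 pathway lists (rows), 1 array for each ratio. Diamonds are the 10 genes, circles the others, filled symbols had a dose trend with adjusted p under 0.05, vertical bars are list medians and dashed lines mark 2-fold. The secreted and vascular list has the highest median of the 8 with either agent, 1.52 and 1.20, and the mitochondria, pH and stress list the lowest, -0.86 and -0.69. Ratios are drawn as measured, also where an array was not well above background.

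For the genes over 2-fold in 1 direction at both top doses, the genes of most similar course were sought among the 11498 well above background on all 8 arrays, by the Euclidean distance over the 6 log2 ratios. LONRF3 and KDM7A lay nearest to VEGFA, at distances of 0.34 and 0.39. BICDL2 and NFKBIE lay nearest to ADM, at 0.48 and 0.57. For EGLN3 the nearest were MEX3A and GPRIN1 at 1.20 and 1.24, and the ratios of EGLN3 that enter them include signals not well above background.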

How the data were processed

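The samples were 8 RNA pools of A549 cells, each on its own one-colour Agilent array. The authors deposited the intensity of each spot from the scanner software, with its local background, a background-subtracted processed signal and spot calls, and a table of processed intensity values. Judged by its values, the table, used only as an alternative, is the median less the background signal after quantile normalization of each series by itself, and 0 to 816 of its values are blank on an array.

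Control spots and outlier spots were left out, the spots of a probe were averaged, and quantile normalization over the 8 arrays and a log2 transform followed. Of 34127 probes, 24812 were named through RefSeq accessions (GRCh38.p14), giving 19056 genes, each read from its brightest probe. Kept were genes whose median signal reached 1.4 times the local background on at least 1 array of each series (19046 genes), and a value below that limit was raised to the lowest detected signal of its array where it lay under it. Where 1 array of a ratio was not well above background, a bound was worked out for the fold of that gene. Slopes, counts, medians, ranks, distances and figures used the ratios or levels as measured.

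For dose trends, limma 3.58.1 in R 4.3.3, with trend and robust settings through statmod 1.5.0, fitted an intercept and a slope on the dose step for each series with 4 residual degrees of freedom, followed by Benjamini-Hochberg adjustment over 19046 genes at 0.05. All p-values measure the spread of the arrays about the fitted values, with the 2 series sharing 1 estimate. The added fit with dose steps as levels left 3 residual degrees of freedom. Python 3.11.15 with pandas 2.3.3, numpy 2.4.6 and scipy 1.17.1 gave the remaining values.

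The 10 genes and the pathway lists were chosen with earlier results of these data known. Named from the lists were all subunit and control genes and, in each other list, up to 5 genes over 2-fold in the same direction at both top doses and well above background on the 4 arrays. One gene that this rule names is not reported here. The number of arrays limits the precision. The files carry no slide or scan information, and no batch beyond the series was examined. The alternatives were 75th percentile scaling, normexp correction (offset 50), the signal as scanned, normalization within each series, the authors' table, the mean of a gene's probes, other filters, plain limma, the 4 arrays of a series alone, the other series' control, other fold thresholds and leaving out each array.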

Additional observations from a re-analysis of the deposited data

How the results depend on the processing

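Beyond the arrays named above, the counts moved by over 1.5 times as follows. The count of the 10 genes with a helveticoside trend was 2, and it was 4 with the signal as scanned or with 75th percentile scaling, and 5 with the normexp correction or when the fit was limited to genes that every array called well above background. The pathway count for EEDS was 23, and 36 with 75th percentile scaling or with the authors' table. The pathway count for helveticoside was 16, and 27 with the signal as scanned and 28 with the normexp correction or when the fit was limited to genes that every array called well above background. From the 4 arrays of a series alone all 4 of these counts were 0. Leaving out 1 array in turn gave 0 to 4 of the 10 genes for EEDS and 0 to 2 for helveticoside, and 0 to 24 and 0 to 16 pathway genes. Over 3-fold at 20 μg/mL EEDS were 3 of the 10 genes against 5 over 2-fold, and over 1.5-fold at 60 nM helveticoside were 7 against 4 over 2-fold. No share of all genes is given for the other settings and fold thresholds, here or below. It therefore cannot be said whether these shifts are particular to the listed genes. The fit limited to genes that every array called well above background also tested fewer genes, so its counts have a different base. The cause of these shifts was not tested, other than fewer arrays or genes entering the fit.

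The split of the pathway trends for EEDS, 17 rising and 6 falling, was 20 and 13 with the signal as scanned, 20 and 14 with the normexp correction, 17 and 10 with normalization within each series and 21 and 15 with the authors' table. That for helveticoside, 12 and 4, was 17 and 10 with the signal as scanned and 18 and 10 with the normexp correction. Of 358 alternative values of single slopes of the 10 genes, 352 kept their sign, while 40 lost and 22 gained a call. Ratios over 2-fold kept their sign in 165 of 165 alternative values. In the fit with dose steps as levels, 7 alternatives that kept all arrays called 5 to 8 of the 10 genes at the middle step and 7 to 9 at the top step, and the fall of HIF1A from the lowest to the top step passed in all 7 (-0.70 to -0.49, adjusted p from 0.0055 to 0.0298). These alternatives reuse the same 8 arrays and a contrast added after the values were seen, so they are no separate support. No paired analysis was possible because each dose has 1 array and the labels give no replicate numbers. With 1 array a dose, a ratio has no error of its own, and signals near background, as for EGLN3, give bounds only.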
